A study of Mus musculus with 4 samples.

Results

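The transcription factors most often linked to epithelial-mesenchymal transition (EMT) were examined in a mouse ovarian cancer line and in a line selected from it for growth in the omentum. The 10 genes were Snai1, Snai2, Twist1, Twist2, Zeb1, Zeb2, Prrx1, Tcf4, Foxc2 and Grhl2. They were chosen by name, with earlier results of these data known, as were the related lists below. The shares set beside those of all genes are therefore descriptions and not tests. All probes whose RefSeq transcript maps to one of these symbols were taken. This gave 19 probes, of 32994 probes that map to 22911 symbols.

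ID8G cells are ID8 cells, a C57BL/6 line that arose from mouse ovarian surface epithelium, transduced with a retrovirus that encodes GFP. GO2 cells descend from ID8G cells. They were sorted as GFP-positive, CD45-negative cells from omental tumors, injected again into the peritoneal cavity of syngeneic mice, and sorted once more from the omental tumors that formed. GO2 is thus a single selected line, and both lines carry the GFP vector and were cultured in the same serum-containing DMEM with insulin, transferrin and selenite. RNA from each line was hybridized to 2 arrays, and whether the 2 arrays of a line came from separate cultures is not stated in the sources used here, so the p-values measure only the spread between these arrays, which may be technical.

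EMT is the conversion of polarized epithelial cells to motile cells with mesenchymal features, and it is regulated by a small set of DNA-binding proteins. The zinc-finger proteins of the Snail and Zeb families bind E-boxes, above all the sequence CAGGTG and its complement CACCTG, and repress epithelial genes such as that for E-cadherin. The Twist proteins are basic helix-loop-helix factors that bind E-boxes as dimers with E proteins such as the Tcf4 product, Prrx1 and Foxc2 are a homeodomain and a forkhead factor of mesenchyme, and Grhl2 maintains the epithelial state. In the ovarian surface epithelium, cells have both epithelial and mesenchymal features even without transformation.

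Levels are given on a log2 scale, as the intensity of a probe relative to that of the 75th percentile of its array, which is 0. Because probes differ in response, the level of one gene is not a measure of its abundance against another gene, and brightest refers only to the signal of a probe. A probe was tested with limma if its signal was well above background, as called by the scanner software, on both arrays of at least 1 line. A call required a difference of at least 1 on the log2 scale together with an adjusted p (Benjamini-Hochberg, over the 28344 probes tested) below 0.05. The 4 arrays had 27502 to 28841 probes well above background, and the lowest level that passed as well above background lay between -3.85 and -3.53.

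Of the 10 genes, 3 were higher in GO2 cells (Snai1, Twist2 and Prrx1), 0 were lower, 5 were tested and not called, and Foxc2 and Grhl2 could not be tested because no probe of theirs was well above background on any array. Over all 13211 genes tested, 9.92% were called, 5.98% higher and 3.94% lower. By probes, 4 of the 12 tested were called higher and 0 lower, against 4.51% and 3.34% of all probes (7.84% in either direction). Among those called was the Prrx1 probe A_55_P2131920, which was below background in ID8G cells and passed the filter through GO2 cells alone. The Twist1 probe, not called, also passed in this way. With signal well above background required on every array, 10 member probes remained, and 3 member genes were called higher and 0 lower. Of the 26020 probes tested in that setting, 666 were called higher and 606 lower. By the adjusted p alone, 9 of the 12 probes passed, against 35.9% of all probes, and 6 of the 8 genes, against 41.0% of all genes. The median difference of the 8 tested genes was 1.12, against -0.00 for all genes tested, and 0.79 with Twist1, the gene below background in ID8G cells, set at its lower bound. Every one of the 12 tested probes had GO2 arrays on one side of the ID8G arrays, but so did 73.6% of all probes.

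**Figure D1:**
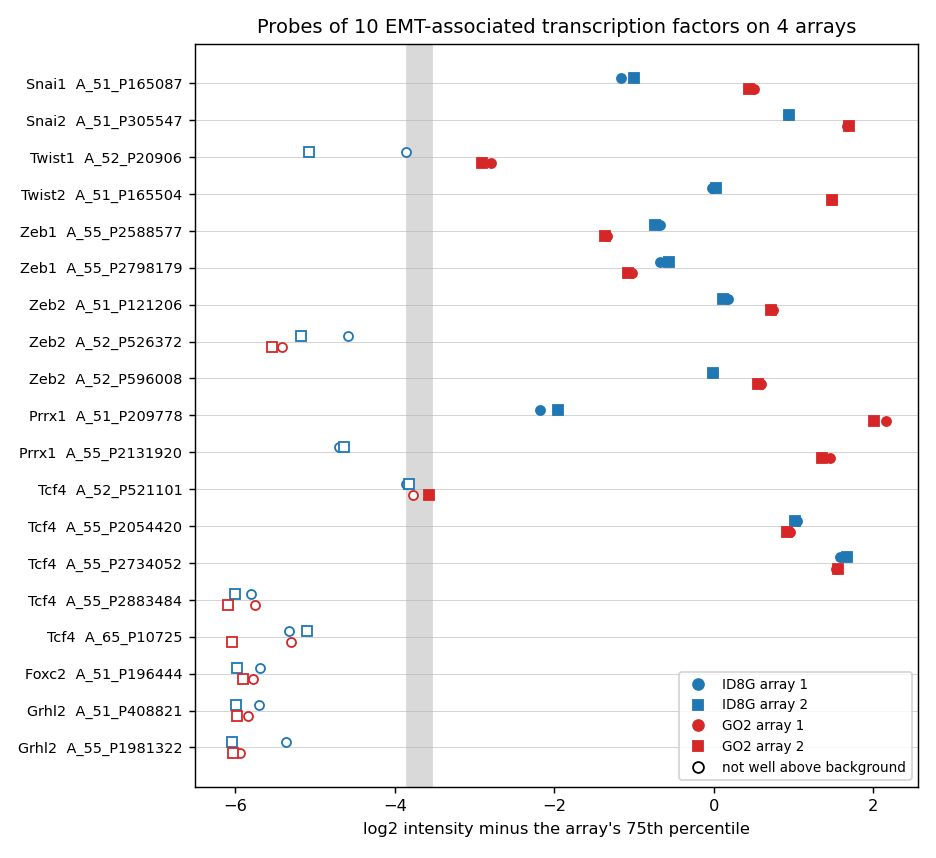
Level of each of the 19 probes on the 4 arrays (log2 scale, 75th percentile of the array at 0), with ID8G in blue, GO2 in red, circles for array 1 and squares for array 2. Open symbols were not well above background, and the gray band spans the lowest well-above-background level of the 4 arrays (-3.85 to -3.53). The probes of Prrx1 have the widest gap between the lines, and those of Foxc2 and Grhl2 lie left of the band on all 4 arrays.

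The regions upstream of the genes called higher in GO2 cells are shown, with that of Twist1, which was higher but not called. E-boxes were marked because the Snail and Zeb proteins among the members bind them. Regulation of these genes through such sequences was not tested. The RefSeq table used here holds a window for 5 of the 10 genes. Each sequence is the 250 bases before the annotated start on GRCm38.p6, written 5′ to 3′ on the strand of the gene, with any CAGGTG or CACCTG in capitals. The windows are chr2:167537945-167538194 (plus strand) for Snai1, chr1:91801211-91801460 (plus strand) for Twist2, chr1:163313651-163313900 (minus strand) for Prrx1 and chr12:33957421-33957670 (plus strand) for Twist1.
Snai1: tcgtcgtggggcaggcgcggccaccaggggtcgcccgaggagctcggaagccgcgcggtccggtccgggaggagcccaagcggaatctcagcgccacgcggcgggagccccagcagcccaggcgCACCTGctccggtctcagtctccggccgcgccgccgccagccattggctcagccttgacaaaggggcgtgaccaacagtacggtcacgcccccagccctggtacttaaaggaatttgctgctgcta
Twist2: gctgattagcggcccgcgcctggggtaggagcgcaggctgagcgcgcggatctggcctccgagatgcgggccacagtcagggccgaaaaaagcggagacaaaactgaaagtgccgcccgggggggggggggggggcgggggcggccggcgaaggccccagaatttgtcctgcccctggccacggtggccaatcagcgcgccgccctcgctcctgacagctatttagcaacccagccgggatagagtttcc
Prrx1: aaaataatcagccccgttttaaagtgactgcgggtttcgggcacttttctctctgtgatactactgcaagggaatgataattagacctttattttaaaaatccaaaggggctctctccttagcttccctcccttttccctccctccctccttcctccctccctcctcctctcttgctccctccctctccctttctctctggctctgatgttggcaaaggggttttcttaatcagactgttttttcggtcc
Twist1: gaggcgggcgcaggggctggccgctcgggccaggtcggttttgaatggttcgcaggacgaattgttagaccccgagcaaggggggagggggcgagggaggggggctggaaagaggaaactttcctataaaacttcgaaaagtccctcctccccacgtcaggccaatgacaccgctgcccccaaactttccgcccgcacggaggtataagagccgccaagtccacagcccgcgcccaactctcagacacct
The Snai1 window held 1 CACCTG, which begins 126 bases before the start. The windows of Twist2, Prrx1 and Twist1 and the 4 windows of Zeb2 held none on either strand. Among all 32851 windows of the same length, 17.2% held CAGGTG or its complement. The windows of Twist2, Prrx1 and Twist1 also held 0 matches to the general E-box CANNTG, which 66.2% of all windows held. The sequence CCAAT occurred on either strand in the windows of Snai1, Twist1 and Twist2 and not in that of Prrx1, against 33.8% of all windows. The GC content was 70.0% for Snai1, 68.8% for Twist2, 62.4% for Twist1 and 47.6% for Prrx1, and the median of all windows was 52.4%. These matches describe the letters of the windows and not binding.

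Snai1 encodes Snail, a zinc-finger repressor of E-cadherin. Its probe (A_51_P165087) had levels of -1.17 and -0.99 in ID8G cells against 0.50 and 0.45 in GO2 cells. Both GO2 arrays lay above both ID8G arrays, and the gap between the lines was many times the gap between arrays of a line. The difference was 1.55 (SE 0.08, limma adjusted p = 0.000872), or 2.94-fold. With respect to the size of the difference in either direction, 6.06% of all genes exceeded it.

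Snai2 encodes Slug, the second Snail family repressor. Its probe (A_51_P305547) had levels of 0.93 and 0.94 in ID8G cells and 1.68 and 1.70 in GO2 cells. The arrays of each line nearly coincided, and the GO2 arrays were higher. The difference of 0.75 (SE 0.05, 95% confidence interval 0.61 to 0.89, limma adjusted p = 0.00171) was larger than the spread between arrays but, at 1.68-fold, below the size required for a call. The upper limit of its interval lies below the lower limit for Snai1, which was 1.34. The third gene of the family, Snai3, was not well above background on any array.

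The Zeb genes encode large zinc-finger and homeodomain repressors that bind paired E-boxes. Zeb1 was measured by 2 probes. The first (A_55_P2588577) had levels of -0.67 and -0.74 in ID8G cells and -1.34 and -1.37 in GO2 cells, and the second (A_55_P2798179) had -0.67 and -0.56 against -1.03 and -1.07. On both probes the GO2 arrays were lower than the ID8G arrays. The differences were -0.65 (SE 0.06, limma adjusted p = 0.00318) and -0.44 (SE 0.06, limma adjusted p = 0.0119), and neither reached the size for a call. Zeb1 was the single member with a negative difference past the p threshold.

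Zeb2 went the other way. The level of its brighter probe (A_51_P121206) was 0.17 and 0.11 in ID8G cells and 0.74 and 0.72 in GO2 cells. A second probe (A_52_P596008) read -0.01 on both ID8G arrays against 0.60 and 0.55 in GO2 cells. The GO2 arrays were higher on both probes, by 0.59 (SE 0.05, limma adjusted p = 0.00389) and 0.58 (SE 0.05, limma adjusted p = 0.00351), again below the size for a call. The third Zeb2 probe (A_52_P526372) was not well above background on any array. The 95% confidence intervals of the Zeb2 differences (0.44 to 0.74 and 0.44 to 0.72) and those of the Zeb1 differences (-0.80 to -0.50 and -0.61 to -0.26) lie on opposite sides of 0. The contrast between the paralogs was read from these intervals, and no test of it was made.

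Twist2, a basic helix-loop-helix factor also known as Dermo1, had levels of -0.02 and 0.03 in ID8G cells and 1.49 and 1.48 in GO2 cells (probe A_51_P165504). The arrays of each line lay close together and the lines did not overlap. The difference was 1.48 (SE 0.05, limma adjusted p = 0.000426), or 2.79-fold.

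Twist1, its paralog, was close to the detection limit. The level of its probe (A_52_P20906) was -3.86 and -5.07 in ID8G cells, not well above background on either array, and -2.79 and -2.91 in GO2 cells, well above background on both. The ID8G arrays differed from each other by more than the GO2 arrays differed from the nearer of them. The measured difference was 1.62 (SE 0.43, 95% confidence interval 0.45 to 2.79), and the limma adjusted p of 0.0502 lay just outside the threshold. Against the lowest level that counted as well above background, Twist1 was at least 1.78-fold higher in GO2 cells. Without ID8G array 1 the difference was 2.23 (limma adjusted p = 0.00378) and without ID8G array 2 it was 1.02 (limma adjusted p = 0.0124), and in both cases it met the criteria for a call. Intensity correction by normexp gave 0.77 (limma adjusted p = 0.00056), too small for a call.

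Tcf4 encodes an E protein, the partner with which Twist proteins dimerize, and 5 probes measured it. The brightest (A_55_P2734052) had levels of 1.59 and 1.67 in ID8G cells and 1.54 and 1.56 in GO2 cells. The next (A_55_P2054420) had levels of 1.05 and 1.02 against 0.96 and 0.92. On both probes the GO2 arrays lay just below the ID8G arrays, and neither difference passed the threshold. The differences were -0.08 (95% confidence interval -0.24 to 0.08, limma adjusted p = 0.355) and -0.10 (95% confidence interval -0.24 to 0.04, limma adjusted p = 0.214), and both intervals lie within a 2-fold difference. The probe A_52_P521101 was well above background on GO2 array 2 alone, and 2 further probes (A_55_P2883484 and A_65_P10725) on no array.

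Prrx1, which encodes a paired-related homeodomain factor of limb and craniofacial mesenchyme, had the largest difference among the members. The level of probe A_51_P209778 was -2.18 and -1.95 in ID8G cells and 2.16 and 2.01 in GO2 cells. It was well above background on all 4 arrays, and the lines were far apart. The difference was 4.15 (SE 0.11, limma adjusted p = 0.000267), or 17.8-fold, the rank of its increase being 61 among 13211 genes. A second probe (A_55_P2131920) had levels of -4.70 and -4.64 in ID8G cells, not well above background on either array, and 1.46 and 1.36 in GO2 cells. On this probe Prrx1 was at least 34.0-fold higher in GO2 cells, with a measured difference of 6.08 (SE 0.06, limma adjusted p = 0.00018). The probes thus gave the same direction and different sizes.

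Foxc2, a forkhead factor of mesoderm and lymphatic vessels, and Grhl2, a grainyhead factor that activates genes of epithelial junctions, were not well above background on any array. The Foxc2 probe (A_51_P196444) and both Grhl2 probes (A_51_P408821 and A_55_P1981322) had levels between -6.04 and -5.37 on the 4 arrays, all under the lowest level called well above background. A difference between the lines in these genes was not detectable with these probes.

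**Figure D2:**
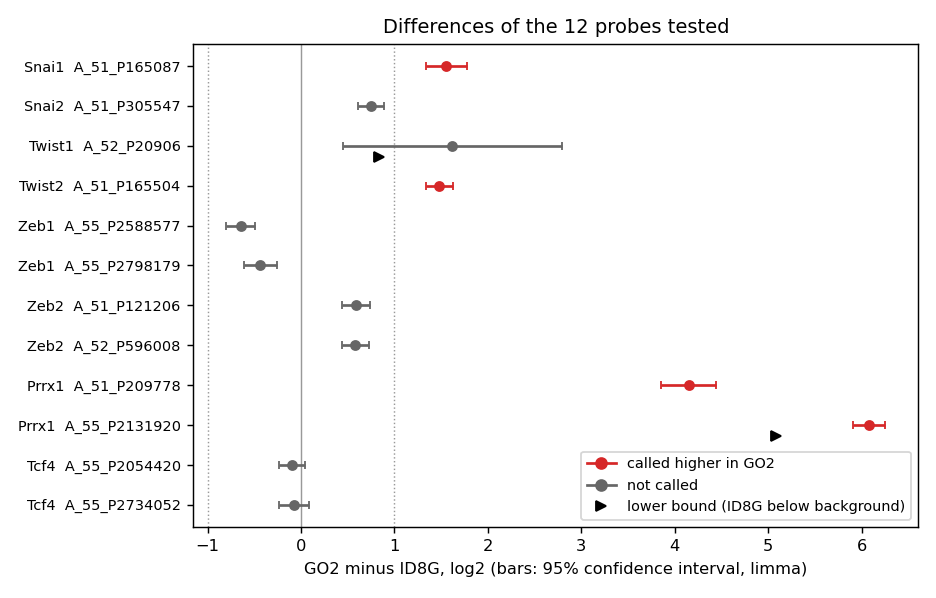
Difference between GO2 and ID8G cells on the log2 scale for the 12 member probes tested, with 95% confidence intervals from limma. Dotted lines mark the difference of 1 required for a call, and black triangles give the lower bound where ID8G cells were below background (0.83 for Twist1 and 5.09 for Prrx1). Called probes are red and lie right of 1, and the Zeb1 and Tcf4 probes lie left of 0.

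The 5 genes whose profile over the 4 arrays lay closest to that of Prrx1 (probe A_51_P209778), each centered on its own mean, were Enpp3, Nxnl2, Tmem119, Cxcl12 and Col12a1. Their Euclidean distances from it were 0.105, 0.143, 0.157, 0.171 and 0.172 on the log2 scale. Their measured differences lay between 4.00 and 4.30, and in ID8G cells Enpp3, Tmem119 and Col12a1 lay under the lowest level that counted as well above background. With 4 arrays in 2 lines, this likeness is mainly that of the size of one difference.

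Among the close paralogs of the members, 13 of 14 listed genes had a probe, 5 were tested, 1 was called higher and 0 lower. For this list and those below, the share of all genes tested was 5.98% higher and 3.94% lower. Foxc1, the forkhead paralog of Foxc2, had levels of -1.81 and -1.89 in ID8G cells and -0.15 and -0.22 in GO2 cells. It was higher in GO2 cells by 1.67 (SE 0.06, limma adjusted p = 0.00045). Foxc2 was not measurable, so these paralogs could not be compared. The probes of Prrx2, the paralog of Prrx1, disagreed. The brighter (A_66_P137331) differed by 0.43 (SE 0.08, limma adjusted p = 0.0199) and was not called, whereas A_55_P2417569 was below background in ID8G cells and higher in GO2 cells by at least 3.59 on the log2 scale (limma adjusted p = 0.00018). Shox2, a related homeobox gene, differed by 0.93 and Scx, a helix-loop-helix factor of tendon, by -0.42, and neither was called. Grhl1 was not well above background on any array, and Grhl3 was so on 1 array of each line.

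The partners and inhibitors of helix-loop-helix factors were mostly measured, with 5 of 6 tested, 2 higher and 0 lower. The Id proteins lack a DNA-binding region and sequester E proteins. Id3 had levels of 0.18 and 0.17 in ID8G cells and 2.25 and 2.20 in GO2 cells, a difference of 2.05 (SE 0.05, limma adjusted p = 0.000255). Id2 was higher by 1.32 (SE 0.06, limma adjusted p = 0.000603). Id1 had the opposite sign, at -0.86 (SE 0.06, limma adjusted p = 0.00158), and was not called. It was called lower when the arrays were scaled to the spike-in transcripts. The E protein genes Tcf3 and Tcf12 differed by 0.24 and 0.50, both short of a call, and Id4 was not well above background.

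Of 26 other transcription factors linked to a mesenchymal state, 20 were tested, 9 were higher and 1 was lower, with a median difference of 0.67, or 0.49 with the 5 genes below background in ID8G cells set at their bounds. All 5 were among the 9 called higher, the bounds of 2 of them (Foxf1 and Lef1) were under the size for a call, and 4 genes were higher when signal well above background was required on every array. Hic1, a zinc-finger repressor found in quiescent mesenchymal cells, was at least 30.6-fold higher (limma adjusted p = 0.000195). Msx1, a homeobox gene, was at least 6.41-fold higher (limma adjusted p = 0.000408), and for Meox1, also a homeobox gene, the lower bound was 1.33 on the log2 scale (limma adjusted p = 0.00199). The gene called lower was Sox9, at -1.41 (limma adjusted p = 0.00134), which was named after its value was seen. Of the 3 brightest genes of the list, Sox4 differed by -0.73, Hmga2 by 0.46 and Etv5 by -0.41, and none was called.

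Of 19 transcription and splicing factors of the epithelial state, 11 were too dim to test, as Grhl2 was. Of the 8 tested, 0 were higher and 1 was lower, and the median difference was 0.04. Foxa1, a forkhead factor, had levels of 0.08 and -0.05 in ID8G cells and -2.16 and -2.37 in GO2 cells and fell by 2.28 on the log2 scale (SE 0.10, limma adjusted p = 0.000603). Klf4, a zinc-finger factor, differed by 0.78, Esrp2, a splicing factor, by -0.29, Trp63 by -0.18 and Foxa2 by 0.04, and these were not called.

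E-cadherin (Cdh1), the classical target of the Snail and Zeb repressors, had levels of -0.48 and -0.33 in ID8G cells and -0.83 and -0.65 in GO2 cells. The GO2 arrays were lower, but the difference of -0.34 (SE 0.10, limma adjusted p = 0.0599) did not pass the threshold. Epcam was not well above background on any array. Of 34 epithelial genes reported as repressed in EMT, 20 were tested, 2 were higher and 4 lower, with a median of -0.28. With normexp correction 1 was higher, and 0 were higher when signal well above background was required on every array, with 4 lower in both cases. Krt19 fell by 1.65 on the log2 scale (limma adjusted p = 0.000339), and the desmosomal gene Pkp1 fell by 2.89 (limma adjusted p = 0.000935). Against the direction given by the list's name, Cldn1, a tight junction gene, was at least 1.46-fold higher (limma adjusted p = 0.000761), a bound under the size for a call, and the keratin gene Krt14 was higher by 3.32 (limma adjusted p = 0.00597) and well above background on 1 of 2 ID8G arrays. The keratin genes Krt8 and Krt18 differed by -0.55 and -0.81 and were not called.

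Of 33 mesenchymal genes reported as raised in EMT, 29 were tested, 12 were higher and 2 lower, with a median of 0.58. Of the 12, 5 were below background in ID8G cells (Col5a2, Tnc, Pdgfrb, Ddr2 and Nt5e), and the bound of Tnc, 0.59, was under the size for a call. When signal well above background was required on every array, 7 were higher. Among the collagen genes, Col1a2 had levels of -2.93 and -3.35 in ID8G cells and 4.35 and 4.34 in GO2 cells, and Col5a2 was at least 12.8-fold higher. Ddr2, which encodes a collagen receptor, was at least 50.1-fold higher. Fibronectin (Fn1) was higher by 1.55 (SE 0.07, limma adjusted p = 0.000673). Vimentin (Vim) and N-cadherin (Cdh2) differed by 0.75 (limma adjusted p = 0.00167) and 0.55 (limma adjusted p = 0.00545) and did not reach the size for a call, and S100a4 and Sparc differed by -0.21 and 0.38. The probes of smooth muscle actin (Acta2) disagreed, the brightest at 0.30, not called, and the others called higher, at 5.64 and, below background in ID8G cells, at least 2.62-fold. Among the genes called lower was the integrin gene Itgb3, named after its value was seen, at -1.19.

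Of 28 listed cofactors and regulators of the members, 21 had a probe and were tested, 1 was higher and 0 were lower, and the median was 0.09. The share called higher was 4.76%, against 5.98% of all genes tested. The corepressor gene Ctbp1 differed by 0.45 (limma adjusted p = 0.00895), the deacetylase gene Hdac1 by -0.01 (limma adjusted p = 0.914) and Trim28, a corepressor gene, by 0.08 (limma adjusted p = 0.323). The gene called higher was Wtip, which encodes a LIM protein of the Ajuba family, at 2.51 (SE 0.05, limma adjusted p = 0.000201). Its relative Ajuba, which links Snail to its corepressors, differed by 0.66 and the kinase gene Pak1 by 0.77, and neither was called. The list's 6 microRNA genes, those of the miR-200 family and miR-205, had no probe.

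Of 28 genes of signaling pathways linked to EMT, 24 were tested, 6 were higher and 0 lower, with a median of 0.34. The BMP ligand gene Bmp2 was higher by 3.22 (SE 0.08, limma adjusted p = 0.000241). The receptor genes Pdgfra and Tgfbr3 were higher by 3.70 (SE 0.08, limma adjusted p = 0.000207) and 5.32 (SE 0.71, limma adjusted p = 0.00974), with Tgfbr3 well above background on 1 of 2 ID8G arrays. Tgfb3, a ligand gene, differed by 0.65, and the receptor gene Fgfr1 by -0.64. The brightest Bmp4 probe differed by 0.996, just under the size for a call, and its other called probe by 1.13.

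**Figure D3:**
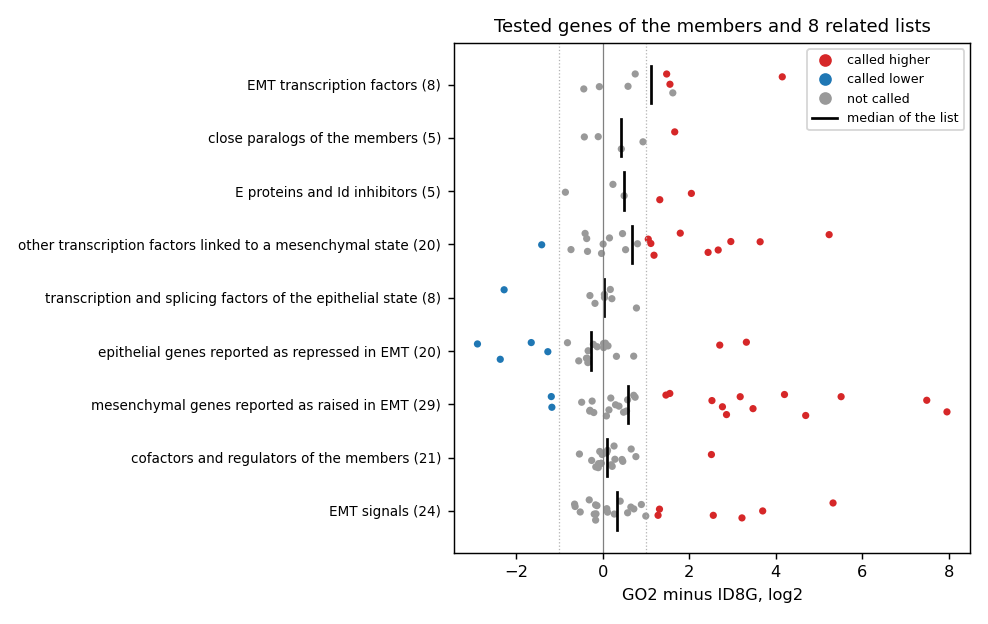
Difference between GO2 and ID8G cells on the log2 scale for each tested gene of the members and of 8 related lists, 1 point per gene (its brightest tested probe), with the number of tested genes in parentheses. Red points were called higher and blue points lower, and the vertical bar is the median of the list. Only the epithelial genes have a median left of 0 (-0.28). The other medians lie right of it, from 0.04 for the factors of the epithelial state to 1.12 for the members. Points of genes below background in 1 line stand at the measured difference, not at the bound.

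Since several members are expressed in stroma, markers of cell types that a sort from the omentum could carry along were read on each array. Of 12 fibroblast markers, 3 gave signal well above background on each of the 4 arrays, whereas Lum, Dpt, Thy1, Pi16, Cd34, Col15a1 and Fap did so on none. Their summed intensity, with the 75th percentile of the array as 1, was 65.5 to 68.3 in ID8G cells and 44.8 to 45.1 in GO2 cells, but Dcn, which differed by -0.63, made up 94.7% to 98.7% of it. Without Dcn the sum was 0.890 to 0.916 in ID8G cells and 2.29 to 2.38 in GO2 cells, and Pdgfra and Pdgfrb were called higher (3.70, and at least 2.42-fold). Scara5, the third marker measured on all 4 arrays, differed by 0.12. The part of fibroblasts in the differences of Prrx1, Twist2 and Snai1 was not tested. Among macrophage markers, Ptprc, Adgre1, Lyz2, Mrc1, C1qa, C1qc and Fcgr1 were well above background on no array. Cd68, Csf1r, Cd14 and Itgam passed that level on each of the 4 arrays, and C1qb on the ID8G arrays alone. These differed by 0.19, 0.22, -0.69, -0.13 and -0.61, in that order, and none was called. The summed intensity of the list was 22.5 to 25.2 in ID8G cells and 21.8 to 21.9 in GO2 cells. Itgam made up 80.5% to 83.1% of it. The sums were 2.64 to 2.91 and 1.75 to 1.90 for endothelial markers, 4.82 to 4.94 and 4.89 to 5.18 for lymphocyte markers, and 24.4 to 24.6 and 8.49 to 9.06 for adipocyte markers. Esam (-0.68, not called) made up 87.5% to 93.5% of the endothelial sum, and Pecam1 differed by 0.08. Lpl (-1.53, called lower) made up 92.9% to 96.4% of the adipocyte sum. Fabp4 was also called lower (-3.18), Lep differed by -0.04, and Adipoq, Plin1 and Cfd were above background on no array. Smooth muscle and pericyte markers summed to 54.3 to 55.6 in ID8G cells and 64.6 to 66.7 in GO2 cells. There Mcam made up 55.0% to 56.2% of the sum, and Myh11, Des, Rgs5 and Abcc9 were above background on no array. Cnn1 was called higher (2.57, below background in ID8G cells) and Kcnj8 lower (-3.40, below background in GO2 cells). Acta2, Mcam and Notch3 were above background on all 4 arrays, and their brightest probes were not called. The further Acta2 probes A_52_P420504 and A_52_P210078 were called higher, at 5.64 and, below background in ID8G cells, at least 2.62-fold. The part of such cells in the differences of the members was not tested. Of the markers of ovarian surface epithelium and mesothelium, 11 of the 12 with a probe gave signal well above background on each array, with sums of 668 to 675 and 386 to 390, of which Krt18 alone made up 40.0% to 41.3%. By gene, 1 of the 11 tested was higher (Upk3b, 1.08) and 1 lower (Krt19, -1.65), and their median difference was -0.10. Fewer cells of a type and less RNA per cell cannot be told apart in such samples.

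**Figure D4:**
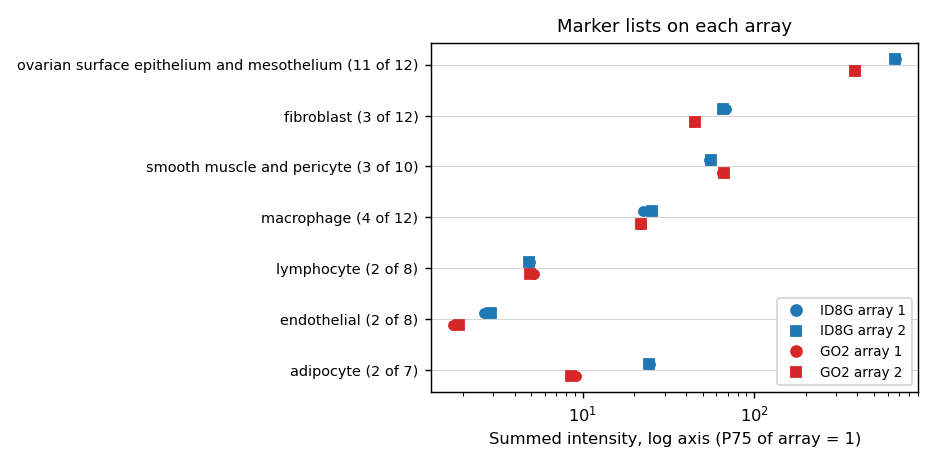
Summed intensity of each marker list on the 4 arrays on a log axis, with the 75th percentile of the array as 1. ID8G is blue, GO2 red, and circles and squares are arrays 1 and 2. Numbers in parentheses give the genes well above background on all 4 arrays of those with a probe. A sum follows the brightest genes of its list: Dcn made up at least 94.7% of the fibroblast sum and Itgam at least 80.5% of the macrophage sum.

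Across settings, Snai1, Twist2 and both Prrx1 probes were called higher in each limma fit that tested them, and Twist1 moved across the threshold. The second Prrx1 probe shrank to 4.05 with normexp correction. It was not tested where signal well above background on all 4 arrays was required.

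**Figure D5:**
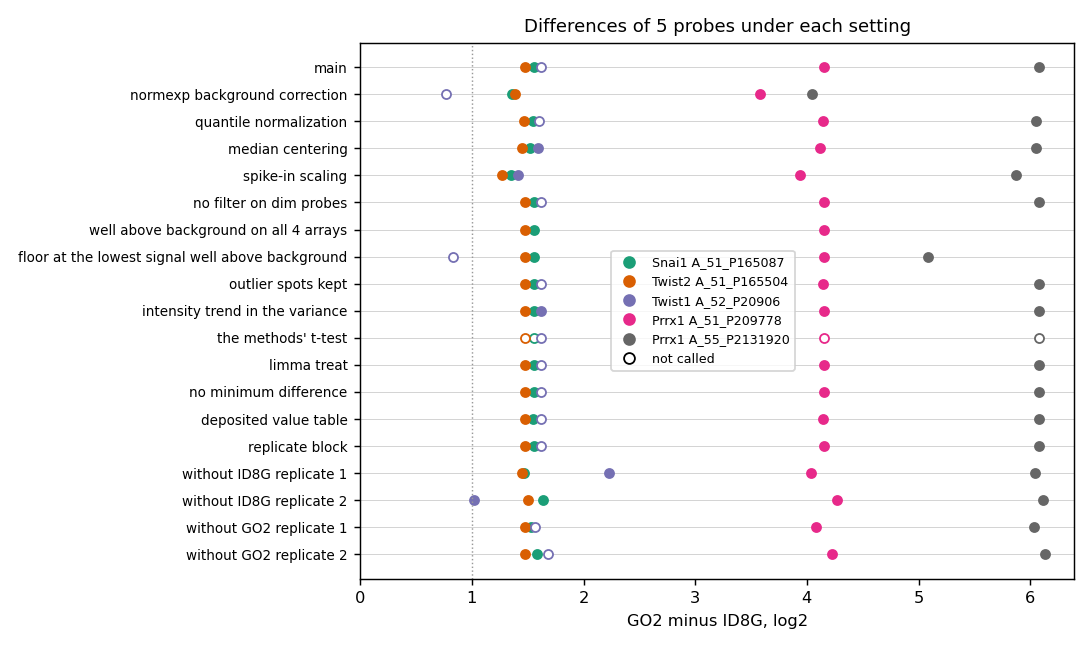
Difference between GO2 and ID8G cells on the log2 scale for the probes of Snai1, Twist2, Twist1 and Prrx1 under the setting used here (main) and under each alternative. Filled points met the criteria for a call and open points did not, and the dotted line marks a difference of 1. Twist1 ranged from 0.77 to 2.23, and under the methods' t-test with adjustment no point was filled.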

How the data were processed

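Total RNA of ID8G and GO2 cells was labeled with Cy3 and hybridized to SurePrint G3 Mouse GE 8x60K arrays on 1 slide with 1 color per array. Groups were taken from the sample titles. The authors deposited scanner files with the linear intensity of each spot, from which Agilent Feature Extraction 11.5.1.1 had subtracted background, without normalization between arrays. A deposited table of log2 values from GeneSpring was compared over the 56305 probes with 1 spot. It equals, within 0.0012, levels computed as described below but with outlier spots kept, less the median of each probe. The column medians of that table were 0.104, -0.0478, 0.038 and -0.0486. The table was used as an alternative, and its normalization is not given in the sources used here.

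Control spots and spots marked as outliers (132 to 195 per array, with 0 saturated) were left out, and the spots of a probe were averaged on the log2 scale relative to the 75th percentile. The 75th percentile was taken over all 56605 probes, and corresponded to an intensity of 627 to 675. Probes were named by matching their RefSeq accession to a GRCm38.p6 table, which named 32994 (58.3%). Probe coordinates are not given, since the array design used mm9.

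Differences were fitted with limma 3.58.1 in R 4.3.3, with line as the only term, over 28344 probes. The procedure was run on simulated data, with the spread drawn from the same fit and independent noise. It recovered 190 of 200 changed probes, with 4 false calls. This checks the code and cannot show whether the arrays of a line vary as separate cultures would. The methods name no test for the arrays, and the unpaired t-test they use elsewhere (the methods' t-test) was an alternative. A gene is represented in counts by its brightest tested probe. Where a line was below background on both arrays, a lower bound was computed against the lowest signal well above background on each array. The number of arrays limits the precision: an exact permutation test of 2 against 2 cannot give a two-sided p below 0.333.

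Named are all members, and from each list the 3 tested genes with the highest level and the 3 with the largest difference, the paralogs of members, Cdh1, Cdh2, Vim, Epcam and Fn1. Other genes were named after their values were seen. The values of 1 listed gene are not reported here. The members and lists were chosen with earlier results of these data known. Figures were drawn with matplotlib 3.10.9 in python 3.11.15. The 19 alternatives covered background correction, scaling, filters, a floor, the variance model, the test, the thresholds, the deposited table, the replicate block, the mean over probes and each array left out.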

Additional observations from a re-analysis of the deposited data

How the results depend on the processing

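Of 222 values of member probes under the alternatives, 208 kept their direction and side of the threshold, 10 gained a call, 4 lost one and 0 reversed. The 4 losses were under the methods' t-test after Benjamini-Hochberg adjustment, with Snai1 at 1.55 (adjusted p = 0.165), Twist2 at 1.48 (adjusted p = 0.146) and Prrx1 at 4.15 (adjusted p = 0.118) and 6.08 (adjusted p = 0.0965). The list counts in this section cover the related lists without the close paralogs and without the cofactors and regulators. That test called 0 members higher, and 0 genes higher and 0 lower of the lists so counted. Over all probes it called 0 higher and 3 lower, against 1001 and 728 at an unadjusted p under 0.05 (limma: 1277 and 946), and of the member probes 4 and 0 at the unadjusted p. Without a minimum difference, 5 members were higher and 1 was lower, since Snai2 (0.75), Zeb2 (0.59 and 0.58) and Zeb1 (-0.65 and -0.44) were then called. The lists so counted then had 52 higher and 23 lower, against 31 and 8. Restriction to probes well above background on each of the 4 arrays left 18 higher in the lists so counted, and limma treat left 4 lower. Twist1 was called with median centering (1.59), spike-in scaling (1.41) and an intensity trend in the variance (1.62), and leaving out single arrays gave 1.02 to 2.23, with a call without either ID8G array and none without either GO2 array (1.56 and 1.68). Normexp correction called 818 probes higher and 517 lower in all, limma treat 749 and 439, and the filter on all 4 arrays 666 and 606, where fewer probes were tested. Scaling to 7 spike-in transcripts moved the median of all probes from -0.02 to -0.23 and gave 1102 higher and 1433 lower, without changing another member call. Same-numbered arrays did not deviate together (correlation 0.0273), so the numbers were not taken as pairs. With the replicate block, 1250 probes were higher and 935 lower, the adjusted p of Twist1 was 0.0571, and no call of a member changed. With a single array left in a line, that array is assumed to vary as the other line does. With 1 slide, no fit with the slide as a block was possible. Foxc2, Grhl2 and, in ID8G cells, Twist1 lie at or below the level at which signal is separated from background.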
